A study of Homo sapiens with 2 samples.

Results

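The 37 genes described here encode proteins of homologous recombination and of the Fanconi pathway. They were chosen by name, as a list of pathway members, from the 58735 genes of the count table, and all 37 had at least 10 counts in 1 library. The study compared PLC8024, a liver cancer line also called PLC/PRF/5 (Alexander cells), as labelled wild type (MAEL WT) and as labelled MAEL knockout (MAEL KO). Both groups are cultures of this line with 1 RNA-seq library each and no added agent in their labels, and according to the methods the knockout cells were made with a guide RNA and grown as single clones from sorted cells. A difference between the groups therefore has no replicate check, and clone and genotype cannot be told apart. In bulk RNA, fewer cells that express a gene and less RNA per cell cannot be told apart either.

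Homologous recombination repairs a broken chromosome by copying the intact sister. The ends are trimmed to single strands, BRCA2 and its partners prepare these to pair with the sister, and the joined molecules are then taken apart by the BLM complex or cut by nucleases. The Fanconi pathway handles DNA crosslinks: a core complex attaches ubiquitin to the FANCI-FANCD2 pair, which directs nucleases, helicases and recombination to the lesion. Many of these genes are known to be expressed mainly in cells that replicate their DNA, and they are often studied in liver cancer for their bearing on drugs that damage DNA.

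The members' promoters were compared first, because promoters with E2F sites and CCAAT boxes are typical of genes expressed in cycling cells. RefSeq promoter windows (GRCh38.p14, 250 bases before to 50 bases after a listed start) were given for 33 of the 37 genes, some with several starts. A match to any of 4 E2F-type letter strings (TTTCCCGC, TTTCGCGC, TTTGCCGC or TTTGGCGC, either strand) stood in 6 of the 33, or 18.2%, against 5.4% of 15843 protein-coding symbols and 3.99% of all 27305 symbols with windows of that length. These 6 genes were EXO1, FANCD2, XRCC2, FANCA, RMI1 and FANCC, and their windows are printed here from the 5′ side on the gene's own strand, from 180 bases before the start up to the start, or to the match if that lies past it, with the E2F-type matches in capitals.
EXO1, chr1:241848024-241848215, plus strand: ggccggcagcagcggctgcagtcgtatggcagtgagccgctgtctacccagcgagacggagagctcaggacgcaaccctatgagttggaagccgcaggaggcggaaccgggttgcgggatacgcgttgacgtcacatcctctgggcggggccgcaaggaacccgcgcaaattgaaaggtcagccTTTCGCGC
FANCD2, chr3:10026257-10026442, plus strand: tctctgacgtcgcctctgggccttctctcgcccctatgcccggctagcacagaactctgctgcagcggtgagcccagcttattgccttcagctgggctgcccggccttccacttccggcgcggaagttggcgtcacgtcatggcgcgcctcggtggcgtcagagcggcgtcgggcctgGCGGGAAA
XRCC2, chr7:152676113-152676321, minus strand: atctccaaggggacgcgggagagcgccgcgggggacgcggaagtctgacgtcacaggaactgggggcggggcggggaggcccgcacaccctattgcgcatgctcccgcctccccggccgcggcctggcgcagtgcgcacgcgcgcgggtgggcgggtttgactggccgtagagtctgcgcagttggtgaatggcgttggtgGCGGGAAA
FANCA, chr16:89816648-89816827, minus strand: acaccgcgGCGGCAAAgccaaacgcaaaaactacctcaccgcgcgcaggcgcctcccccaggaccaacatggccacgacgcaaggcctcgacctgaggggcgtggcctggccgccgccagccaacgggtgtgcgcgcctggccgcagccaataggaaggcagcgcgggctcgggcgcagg
RMI1, chr9:83980625-83980804, plus strand: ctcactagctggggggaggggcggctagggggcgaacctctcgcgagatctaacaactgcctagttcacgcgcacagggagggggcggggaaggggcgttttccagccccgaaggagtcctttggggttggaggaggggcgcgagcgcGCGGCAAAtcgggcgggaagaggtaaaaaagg
FANCC, chr9:95317710-95317889, minus strand: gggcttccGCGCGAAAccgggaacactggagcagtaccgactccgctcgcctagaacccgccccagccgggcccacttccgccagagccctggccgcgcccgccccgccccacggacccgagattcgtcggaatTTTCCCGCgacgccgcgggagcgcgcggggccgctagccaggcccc

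The 6 members with an E2F-type match had a median of 1.28 for the log2 fold change (MAEL KO over MAEL WT), and those without a match had 0.90. Over the protein-coding genes tested, the median was 0.21 for 691 genes with a match and 0.02 for 10079 without. The match did not sort the members: FANCC, with 2 matches, had a log2 fold change of 0.54, while BLM and BRIP1, with none, had 2.27 and 1.97. The CCAAT box (CCAAT, either strand) stood in 15 of the 33 members, 45.5%, near the 42.14% of protein-coding symbols, and the median log2 fold change was 1.13 for these 15 and 0.63 for the others. Over the protein-coding genes tested, the median was 0.06 with a CCAAT box and 0.01 without. The TTTGAA string of the cell cycle homology region stood in 3 members, 9.1%, against 15.85% of protein-coding symbols. Here the members ran the other way, with a median log2 fold change of 0.54 for these 3 and 1.08 for the others. The protein-coding genes tested had 0.075 with the string and 0.028 without. The CCAAT box did not sort the members either: EXO1, with the highest fold change, had none, while FANCF had 2 boxes and a log2 fold change of 0.02 (-0.26 with total counts). BLM and BRIP1, each with 3 CCAAT boxes (capitals), and TOP3A, which had none, are printed over the same 180 bases as examples of windows with and without the box.
BLM, chr15:90717166-90717345, plus strand: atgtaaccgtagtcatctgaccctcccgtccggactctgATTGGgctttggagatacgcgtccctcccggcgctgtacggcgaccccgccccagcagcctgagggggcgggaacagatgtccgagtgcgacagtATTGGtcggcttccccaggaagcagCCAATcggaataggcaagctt
BRIP1, chr17:61863529-61863708, minus strand: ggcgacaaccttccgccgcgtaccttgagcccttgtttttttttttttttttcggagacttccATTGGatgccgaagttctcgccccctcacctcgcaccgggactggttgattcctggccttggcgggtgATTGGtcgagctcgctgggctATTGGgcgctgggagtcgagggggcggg
TOP3A, chr17:18314995-18315174, minus strand: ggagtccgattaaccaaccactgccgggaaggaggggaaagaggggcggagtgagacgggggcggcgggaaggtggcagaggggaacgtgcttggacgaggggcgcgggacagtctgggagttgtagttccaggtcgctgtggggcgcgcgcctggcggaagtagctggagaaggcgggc
A match is a string of letters and not an occupied site, and no binding was measured.

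The libraries held 19904136 counts (MAEL WT) and 20833332 counts (MAEL KO), and mitochondrial genes took 4.423% and 4.955% of them. The targeted gene MAEL had 1 count in MAEL WT and 0 in MAEL KO, both under the floor of 3 counts and so not detectable at this depth, and its transcript could not check the labels. All 12 liver and epithelial markers were detected in both libraries, with summed counts of 279644 and 566408, and their median fold change on the log2 scale was 1.28. Summed counts of the other marker lists were low: 275 and 177 for 6 fibroblast markers, of which 3 were at or under 3 counts in each library, 354 and 407 for 4 endothelial markers, of which 2 were at or under 3 counts in each library, and 44 and 10 for 5 immune markers, of which 3 and 4 were. The part of these marker differences in the results that follow was not tested.

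Transcripts of the recombination and Fanconi genes were more abundant in the MAEL KO library. Together they took 0.0871% of the counts in MAEL WT and 0.1402% in MAEL KO, or 17341 and 29208 counts. After TMM scaling, the log2 fold change (1 added to both normalized counts) ranged from -0.36 for RAD51B to 2.58 for EXO1, with a median of 1.11, beside a median of -0.04 over the 17887 genes with at least 10 counts in 1 library. The value was above 0 for 34 of the 37 members, against 48.0% of all genes tested. It was above 1 for 20 members, 54.1% of them, against 10.2% of all genes, and above 2 for EXO1, BLM and RAD51AP1, against 2.16% of all genes. None of the members was below -1, a level passed by 16.5% of all genes. Of the 12023 genes with at least 100 counts, a minimum that all members passed, 1101 were below -1 and 1110 above 1. Scaling by total counts in place of TMM moved the median of all genes from -0.04 to -0.31. It left 30 members above 0 and 12 above 1, with a median of 0.84. Of the 17887 genes tested, 1174 were above 1 with total counts, against 1827 with TMM. The share of all genes above 0 with total counts is not given. With total counts 22.6% of the genes past 1 in either direction were higher in MAEL KO, against 38.2% with TMM. Each 95% interval given in brackets is an exact Clopper-Pearson interval that covers counting error only.

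**Figure D1:**
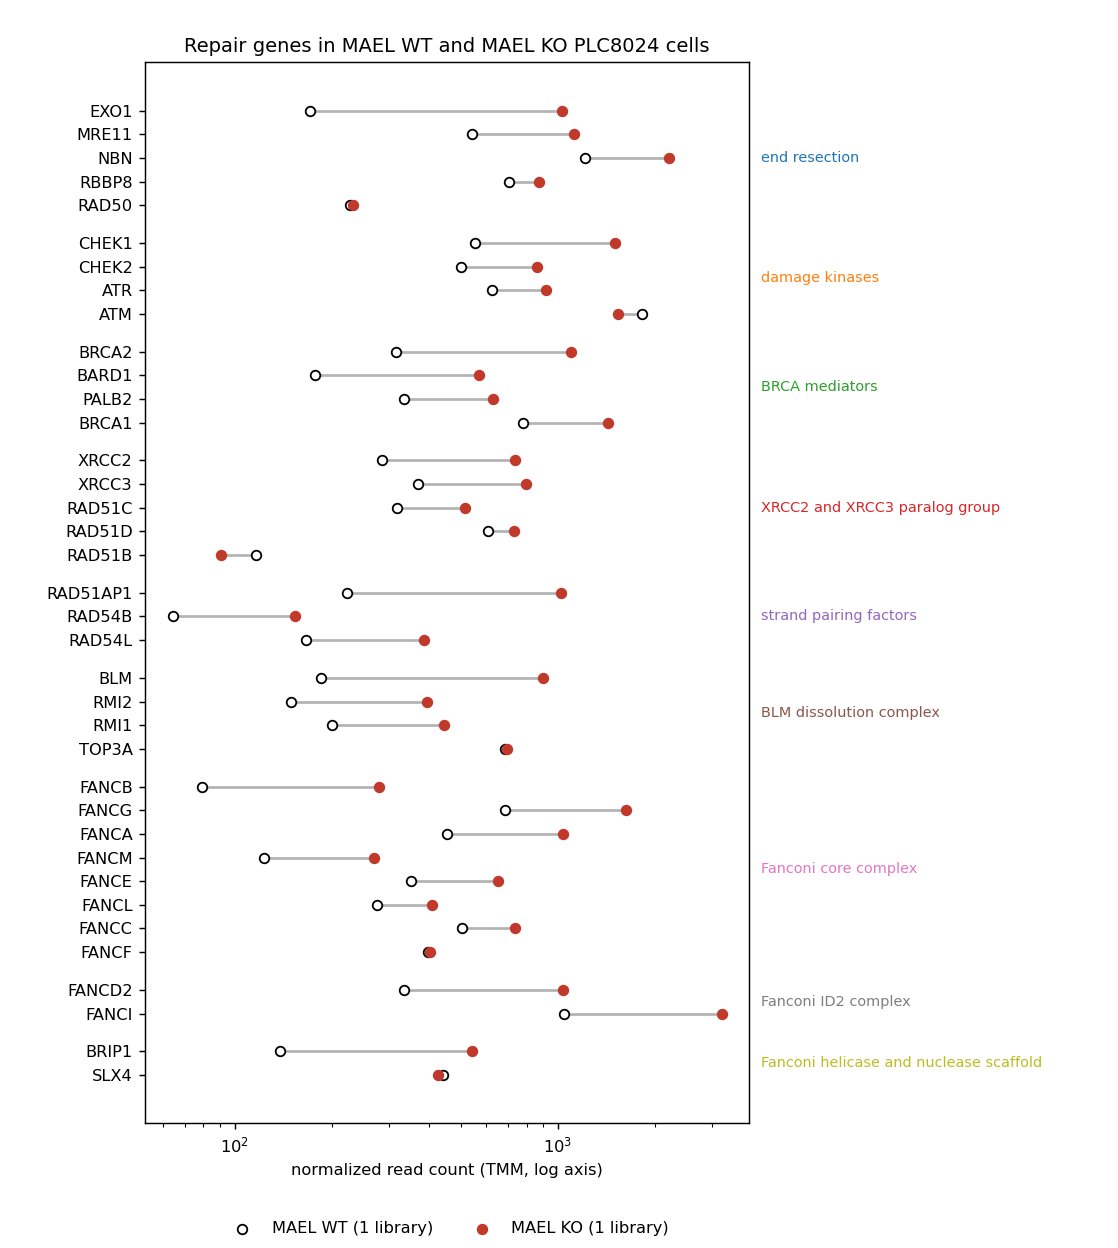
Normalized read counts (TMM, log axis) of the 37 genes in the MAEL WT library (open circles) and the MAEL KO library (filled circles), joined by a line and grouped by role. The MAEL KO circle lies to the right in 34 genes, and the widest gap is that of EXO1, from 170.6 to 1028.9.

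End resection was led by EXO1, the exonuclease that extends the single strand. EXO1 (ENSG00000174371, chr1:241847967-241895148, plus strand, GRCh38) had 183 counts in MAEL WT and 954 in MAEL KO, a difference (log2 2.58, 2.36 to 2.83) that placed it at the 99.0th percentile of all genes tested. MRE11, the nuclease subunit of the MRN complex that finds the break, had 580 and 1042 counts (log2 1.05, 0.91 to 1.21). NBN, the MRN subunit that recruits the ATM kinase, had 1303 and 2049 counts (log2 0.86, 0.76 to 0.96). RBBP8 (CtIP), which stimulates MRE11, had 758 and 812 counts (log2 0.31, 0.17 to 0.45). RAD50, the ATPase that holds MRN together, differed least of the 5 resection genes, with 244 and 216 counts, a log2 fold change of 0.03 whose interval, -0.24 to 0.30, included 0 and which was -0.24 with total counts. Its low count needs care, because 79.66% of its exonic bases are also annotated on the same strand to a second gene, AC116366.3, which had 3 and 5 counts.

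Among the damage kinases, the 2 effector kinases had larger fold changes than the apical kinases that activate them. CHEK1, which restrains the cell cycle when replication stalls, had 593 and 1389 counts (log2 1.44, 1.30 to 1.58). CHEK2, the effector that acts mainly after breaks, had 539 and 801 counts (log2 0.78, 0.62 to 0.94). ATR, which answers to single-stranded DNA at forks, had 671 and 851 counts (log2 0.55, 0.41 to 0.70). ATM, which answers to breaks, was the only kinase that was lower in MAEL KO, with 1955 and 1421 counts (log2 -0.25, -0.35 to -0.15). The FPKM ratio of CHEK1 to ATR, which does not depend on the scaling between libraries, was 1.68 in MAEL WT and 3.11 in MAEL KO, and that of CHEK2 to ATM was 1.47 and 3.01.

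All 4 BRCA genes had more reads in MAEL KO. BRCA2, which prepares the single strand for pairing, had 338 and 1021 counts (log2 1.80, 1.63 to 1.99), and PALB2, which links it to BRCA1, had 357 and 584 (log2 0.92, 0.73 to 1.11). BRCA1, a ubiquitin ligase that promotes resection, had 834 and 1321 counts (log2 0.87, 0.75 to 1.00). BARD1, the obligate partner of BRCA1, had 190 and 530 (log2 1.69, 1.45 to 1.94). The partners thus came closer in level: the FPKM ratio of BRCA1 to BARD1 was 2.90 in MAEL WT and 1.65 in MAEL KO, and that of BRCA2 to PALB2 was 0.366 and 0.676. BRCA1 shares 1.31% of its exonic bases with the lincRNA AC060780.1 on the same strand, which had 533 and 2743 counts.

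The 5 genes of the paralog group of XRCC2 and XRCC3, which help the single strand to pair, spanned a wide range, and their median was 0.69. XRCC2 had 307 and 684 counts (log2 1.36, 1.17 to 1.56). XRCC3, which pairs with RAD51C, had 395 and 740 counts (log2 1.11, 0.94 to 1.30), but 76.68% of its exonic bases lie opposite exons of KLC1, which had 1547 and 1090 counts. RAD51C, the paralog found in both paralog complexes, had 342 and 477 counts (log2 0.69, 0.49 to 0.90). The remaining paralogs differed little. RAD51D had 653 and 680 counts, a log2 fold change of 0.27 (0.11 to 0.43) that became -0.01 with total counts. RAD51B had only 125 and 84 counts, the lowest fold change of the members (log2 -0.36, -0.78 to 0.05), with an interval that included 0.

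The strand pairing factors were all above 1. RAD51AP1 (ENSG00000111247, chr12:4538798-4560048, plus strand), which promotes strand pairing, had 239 and 948 counts, 4.57-fold more (log2 2.19, 1.99 to 2.41). RAD54L, the motor protein that opens the intact duplex, had 178 and 356 counts (log2 1.21, 0.95 to 1.48), and its relative RAD54B had 69 and 142 (log2 1.24, 0.83 to 1.69), the fewest reads of any member in MAEL WT. RAD54L shares 25.09% of its exonic bases with LRRC41 on the other strand. RAD54B shares 59.08% with FSBP on its own strand.

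In the dissolution complex, BLM (ENSG00000197299, chr15:90717327-90816165, plus strand), the helicase mutated in Bloom syndrome, had 198 and 831 counts (log2 2.27, 2.05 to 2.51), while its partner topoisomerase TOP3A had 738 and 646 (log2 0.02, -0.14 to 0.17; -0.26 with total counts). The FPKM ratio of BLM to TOP3A was 0.260 in MAEL WT and 1.25 in MAEL KO, so the less abundant transcript of the pair in MAEL WT was the more abundant in MAEL KO. RMI1 and RMI2, the small subunits that stabilise the complex, had 215 and 412 counts (log2 1.15, 0.91 to 1.39) and 160 and 364 counts (log2 1.39, 1.12 to 1.67).

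**Figure D2:**
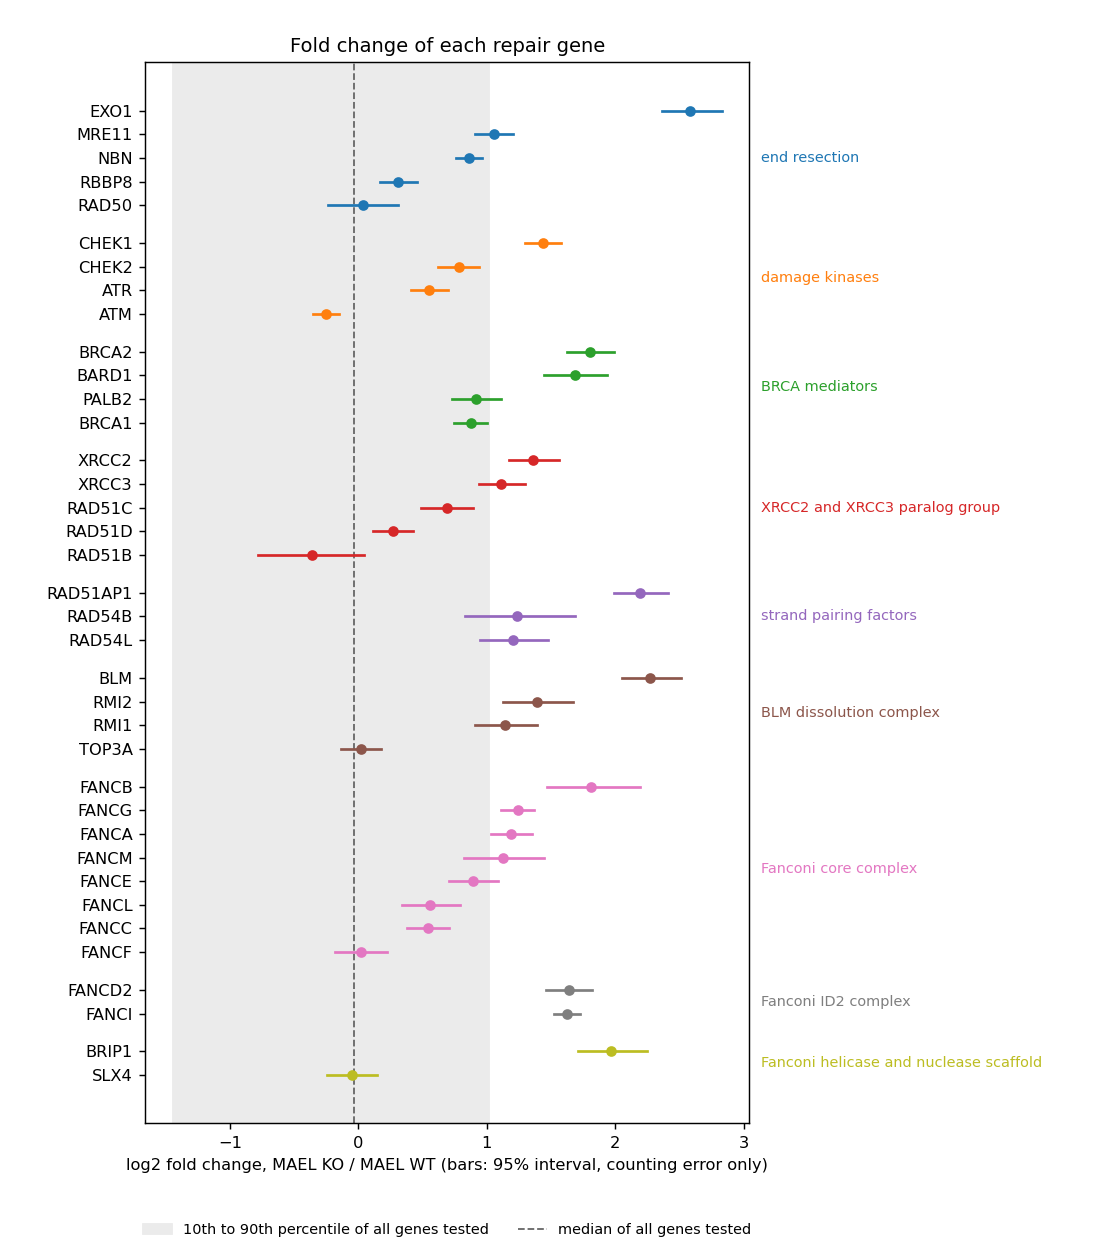
Log2 fold change (MAEL KO over MAEL WT) for each gene (points, coloured by role) with its 95% interval for counting error, over the 10th to 90th percentile of all genes tested (grey, -1.45 to 1.02) and their median (dashed, -0.04). Every role except the ID2 pair and the strand pairing factors also holds genes inside the grey range.

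The 8 genes of the Fanconi core complex had a median log2 fold change of 1.01. FANCB, a subunit of its catalytic module encoded on the X chromosome, had the largest difference, with 85 and 260 counts (log2 1.81, 1.47 to 2.19). FANCG, a scaffold subunit that binds FANCA, had 737 and 1506 counts (log2 1.24, 1.11 to 1.37) and was the most abundant member per length in MAEL KO, with an FPKM of 22.0 against 9.32 in MAEL WT. FANCA had 487 and 963 counts (log2 1.19, 1.03 to 1.35), with 23.64% of its exonic bases opposite exons of ZNF276, which had 500 and 497 counts. FANCM, the translocase that anchors the complex on DNA, had 132 and 250 counts (log2 1.13, 0.82 to 1.45).

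The other core genes were below 1. FANCE, which binds FANCD2, had 376 and 605 counts (log2 0.90, 0.71 to 1.09). FANCL, the ubiquitin ligase itself, had 296 and 378 (log2 0.56, 0.34 to 0.79), and FANCC, the partner of FANCE, had 543 and 683 (log2 0.54, 0.38 to 0.71). FANCF, the adaptor between the subcomplexes, had 426 and 373 counts, a log2 fold change of 0.02 (-0.19 to 0.22) that became -0.26 with total counts. The FPKM ratio of FANCB to FANCL, both of the catalytic module, was 0.193 in MAEL WT and 0.462 in MAEL KO.

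The substrates of the core complex differed by nearly the same factor. FANCD2 had 357 and 962 counts (log2 1.64, 1.46 to 1.82) and FANCI had 1118 and 2976 (log2 1.62, 1.52 to 1.72). Their FPKM ratio, FANCI to FANCD2, was 3.38 in MAEL WT and 3.34 in MAEL KO. The genes that act after them did not share this pattern. BRIP1 (FANCJ), a helicase that binds BRCA1, had 148 and 503 counts (log2 1.97, 1.71 to 2.25), whereas SLX4, the scaffold of the nucleases that cut the crosslink, had 472 and 394 (log2 -0.05, -0.25 to 0.15).

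On the scale of deposited FPKM, which is per length, the summed level of the 37 genes was 125 in MAEL WT and 262 in MAEL KO. The sum over all 17887 genes tested was also higher in MAEL KO, at 267074 in MAEL WT and 335536 in MAEL KO. In MAEL WT the most abundant members were NBN (9.68), FANCG (9.32) and RBBP8 (6.81). In MAEL KO they were FANCG (22.0), FANCI (20.2) and RAD51AP1 (19.5), and EXO1 went from rank 25 to rank 5. RAD51B was the least abundant in MAEL KO at 0.593, and RAD54B in MAEL WT at 0.594. Across the 37 genes the log2 fold change had a Spearman correlation of 0.14 with the mean FPKM and of -0.26 with gene length, given as a description of genes that share the same 2 libraries.

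**Figure D3:**
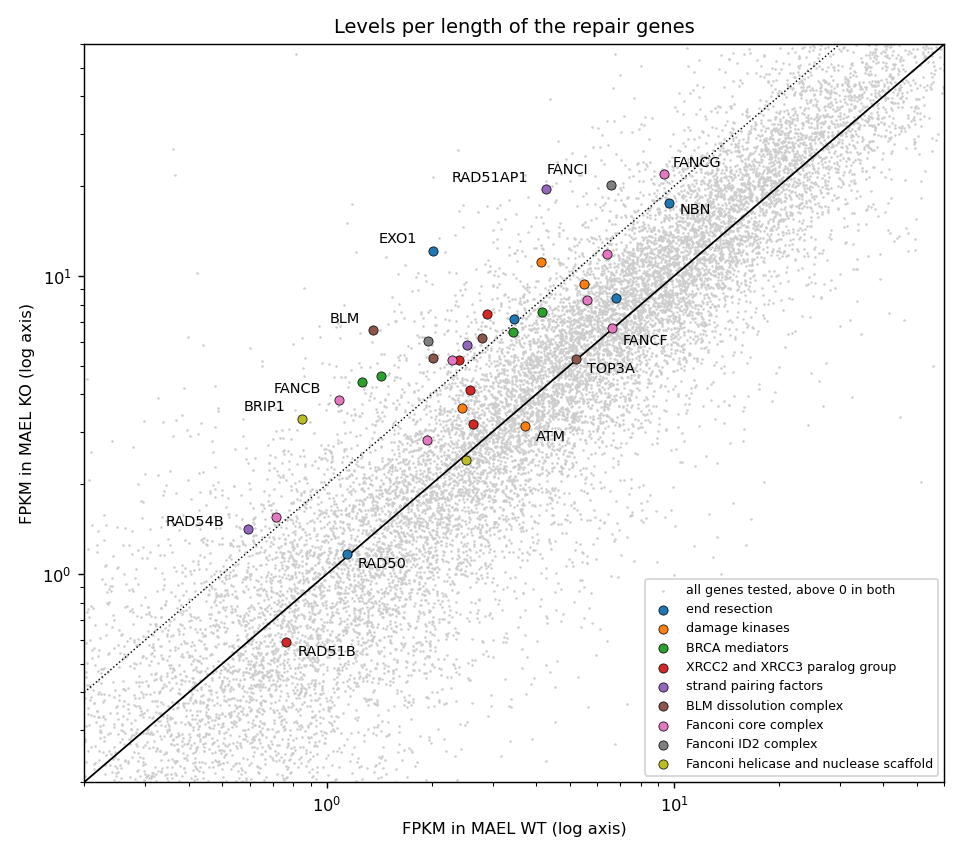
Deposited FPKM of the 37 genes (coloured by role) and of the other genes tested (grey) in MAEL WT and in MAEL KO, both axes logarithmic, with a solid line at equal level and a dotted line at a ratio of 2. RAD51AP1, FANCI, EXO1 and BLM lie above the dotted line, while TOP3A, FANCF and RAD50 lie next to the solid one.

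Several members begin beside a gene on the other strand. Within 1000 bases, 14 members had a protein-coding neighbour that starts in the opposite direction. The median log2 fold change of these neighbours was 0.09 and none was past 1 in either direction, beside 0.90 for the 14 members. RAD51AP1 (log2 2.19) starts beside C12orf4, which had 362 and 330 counts (log2 0.08). FANCB (log2 1.81) starts beside MOSPD2, with 1243 and 590 counts (log2 -0.86). ATM was the reverse case, at -0.25 beside NPAT, a histone gene activator with 208 and 354 counts (log2 0.97). RMI1 and HNRNPK were closest among the members above 1, at 1.15 and 0.82. The members lie on 18 chromosomes, with at most 5 on a single chromosome (chromosome 17), where BRIP1 had a log2 fold change of 1.97 and TOP3A had 0.02.

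**Figure D4:**
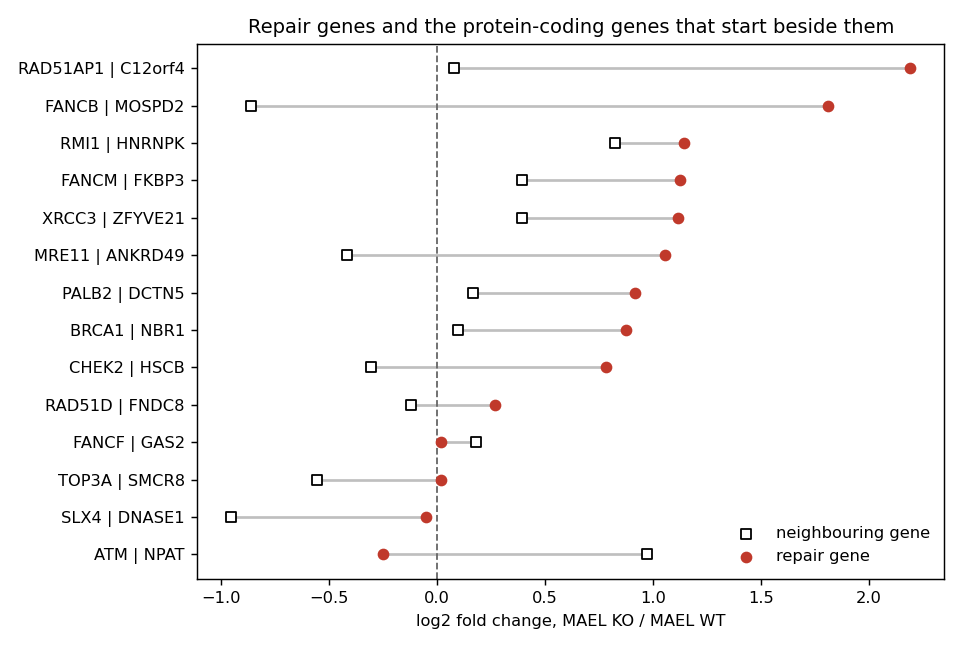
Log2 fold change of 14 recombination and Fanconi genes (filled circles) and of the protein-coding gene that starts within 1000 bases of each on the other strand (open squares), joined by a line. The circles span -0.25 to 2.19 and the squares -0.95 to 0.97.

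Other gene lists of the same pathways had smaller medians. Of 42 other recombination and Fanconi genes, 39 were tested, with a median log2 fold change of 0.77, 27 above 0, 14 (35.9%) above 1 and none below -1. The highest were DNA2, a nuclease-helicase of long-range resection, with 190 and 650 counts (log2 1.98), MND1, known for its part in meiotic recombination, with 80 and 257 (log2 1.88), and FIGNL1 with 203 and 593 (log2 1.75). The lowest were RAD52, which anneals single strands, with 438 and 201 counts (log2 -0.91), the helicase RECQL5 with 1020 and 548 (log2 -0.69) and the nuclease subunit MUS81 with 2757 and 1501 (log2 -0.67). The fork-protecting and checkpoint genes around ATR and CHEK1, 17 in number, had a median of 0.73. Of these, 8 (47.1%) were above 1, a share near the 54.1% of the members. CLSPN, the adaptor through which ATR activates CHEK1, led them with 226 and 1034 counts (log2 2.40). Break signalling genes of the TP53BP1 and BRCA1-A pathways had a median of 0.38 over 16 genes, with H2AFX above 1 (889 and 1790 counts, log2 1.22) and TP53BP1 lowest (1967 and 1189 counts, log2 -0.52).

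The lists of repair pathways that do not use recombination had medians nearer to that of all genes. Median log2 fold changes were 0.49 over 7 mismatch repair genes, 0.29 over 13 end-joining genes, 0.20 over 19 nucleotide excision repair genes, 0.13 over 8 translesion synthesis genes and 0.11 over 18 base excision repair genes, and the last 3 turned to -0.07, -0.14 and -0.17 with total counts. Single genes in them were nonetheless high: POLQ, the polymerase of microhomology-mediated joining, had 162 and 506 counts (log2 1.85), MSH6, a mismatch recognition subunit, had 1950 and 5484 (log2 1.70), and NEIL3, a glycosylase that also unhooks crosslinks, had 42 and 291 (log2 2.97). Above 1 were 2 of 7 mismatch repair genes, 5 of 13 end-joining genes, 1 of 19 nucleotide excision repair genes, 1 of 8 translesion synthesis genes and 3 of 18 base excision repair genes, beside 10.2% of all genes. The share of end-joining genes above 1, 38.5%, was thus no lower than the 35.9% of the other recombination and Fanconi genes.

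Replication and mitotic genes were higher in MAEL KO too, with larger medians than the recombination and Fanconi genes. All 38 replication fork genes were above 0 and 36 were above 1. Their median was 1.92 on the log2 scale, and they were led by RRM2, a subunit of ribonucleotide reductase, with 235 and 2159 counts (log2 3.40). All 20 mitotic genes were above 1, with a median of 2.07. Among 22 genes of the E2F, RB and DREAM regulators, 12 were above 1 and LIN37 was below -1, with a median of 1.17. E2F1 had 792 and 1763 counts (log2 1.36), MYBL2 had 941 and 3800 (log2 2.22) and FOXM1 had 632 and 1616 (log2 1.56). Of 19 p53 target genes 5 were below -1 and 1 was above 1, with a median of -0.29. The paper reported slower proliferation of MAEL knockout PLC8024 cells in its growth assays. The relation of these RNA values to growth was not tested. The part of the replication and cell cycle genes in the values of the 37 genes was not tested either.

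**Figure D5:**
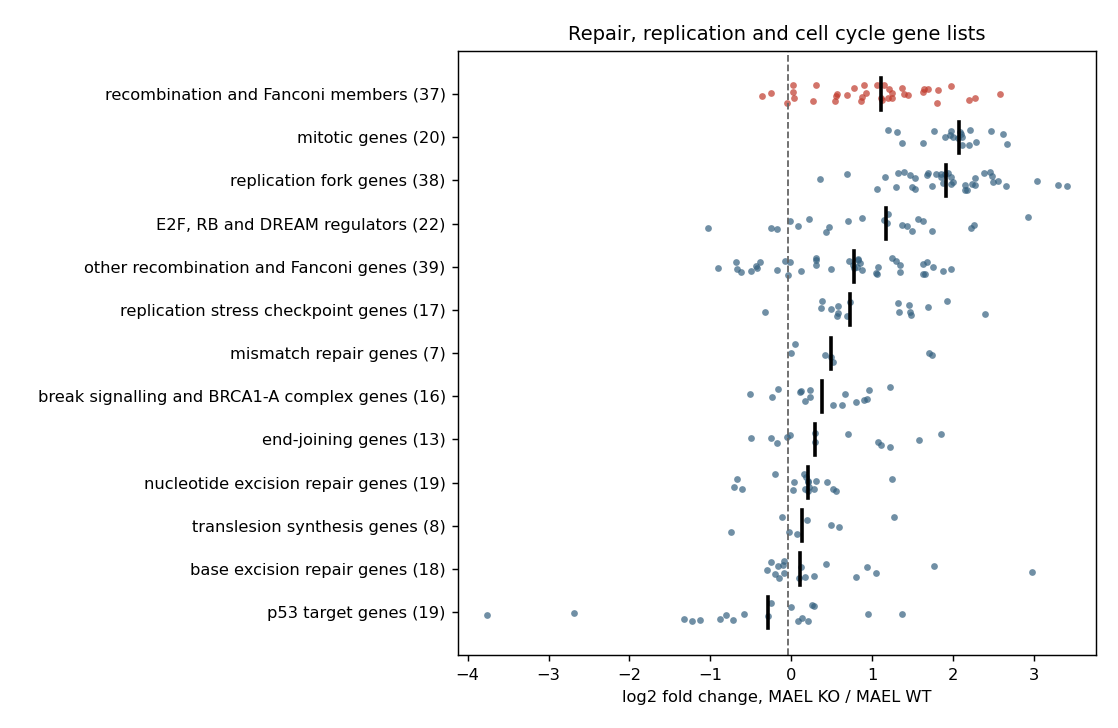
Log2 fold change (MAEL KO over MAEL WT) of each gene (points, spread vertically for display) in the 37 recombination and Fanconi genes and in 12 other lists, with the list's median (black bar), the number of genes tested in brackets and the median of all genes (dashed). The members' bar, at 1.11, lies between those of the replication fork genes, at 1.92, and the other recombination and Fanconi genes, at 0.77.

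Counting limits apply to particular genes. The intervals of RAD50, RAD51B, TOP3A, FANCF and SLX4 included 0, so their differences lay within counting error. An interval without 0 still leaves out replicate and scaling error. That of RAD51D was 0.11 to 0.43, yet its log2 fold change was -0.007 with total counts. Exons of 18 members overlap a gene on the other strand, and since the strand setting of the counting is not given in the sources used here, reads of such pairs cannot be told apart. A further limit is that 5 members have a pseudogene named after them in the table. Of these pseudogenes CHEK2P2 alone had reads (67 and 11 counts, beside 539 and 801 for CHEK2). Pseudogenes under other names were not searched for. Leaving out every member with an opposite-strand overlap or a pseudogene named after it left 17 genes with a median log2 fold change of 1.24.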

How the data were processed

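The authors sequenced RNA of 1 MAEL WT and 1 MAEL KO culture, and deposited raw read counts for each gene together with FPKM values. Dividing the counts by gene length and by 1 adjusted library size per sample gives back the deposited FPKM. The submitters' processing notes name HISAT2 2.0.5, featureCounts 1.5.0-p3 and the build hg19. The tables nevertheless carry GRCh38 coordinates: all 58735 identifiers were found in GENCODE 29 with the same start and end. The sample columns are named PLC5, after PLC/PRF/5, with the endings WT and KO. Strand and multi-mapping settings are not given in the sources used here.

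TMM factors, 1.10044 and 0.90873, came from edgeR 4.0.16 in R 4.3.3, and both libraries were brought to their mean effective size. Log2 fold changes (MAEL KO over MAEL WT) used a prior count of 1 and were kept where 1 library or both held 10 counts or more. Intervals are exact Clopper-Pearson intervals at 95% and, like the floor of 3 counts, leave out all but counting error, as each group has 1 library. The reads carry no molecular identifiers, so this error refers to reads and not to molecules. No p-value is printed, because 1 library per group leaves no replicate error. Thresholds of 1 and 2 on the log2 scale are descriptive. Python 3.11.15 was used for tables (pandas 2.3.3, NumPy 2.4.6), intervals (SciPy 1.17.1) and plots (matplotlib 3.10.9). Alternatives were DESeq2 1.42.0 size factors, total counts, FPKM ratios (0.01 added) and a prior count of 0.1 or 5. Others were count minimums of 100 and none, protein-coding genes alone, and a trend with length and mean count removed. An exact test in edgeR at an assumed coefficient of variation (0.4 or 0.1) was also run, and its calls are given for the members only. The steps were tested on simulated data.

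The 37 genes and all other lists were chosen with earlier results of these data known. The genes named are the 37, MAEL, the marker lists in sum, E2F1, MYBL2 and FOXM1, and some of the up to 3 genes at either end of each other list, while genes that overlap or neighbour a member were named after their values were seen. Some genes that this rule covers do not appear. Exon overlaps and neighbours come from GENCODE 29, and promoter letters from RefSeq on GRCh38.p14, which gave windows for 33 of the 37 genes by symbol.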

Additional observations from a re-analysis of the deposited data

How the results depend on the processing

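Of 185 single-gene values of the members under 5 alternatives, 152 stayed within the interval of the value given, 29 moved and 4 changed sign. DESeq2 size factors and FPKM ratios scale the libraries much as TMM does, and prior counts of 0.1 or 5 are small beside the members' reads. These alternatives could hardly move a value, and each left all 37 in place. All 33 changes came with total counts, under which only 4 of the 37 values stayed. Total counts put RAD50 at -0.24, RAD51D at -0.007, TOP3A at -0.26 and FANCF at -0.26. Total counts also put 12 members above 1 and 1 above 2, with a median of 0.84. They put 1174 of the 17887 genes tested above 1 and 269 above 2. With the trend with length and mean count removed, the members' median was 0.91. In place of the fold threshold, which 20 members passed, edgeR's exact test on the reads (adjusted p threshold 0.01) called 0 members higher at a coefficient of variation of 0.4 and 26 at 0.1, counts that rest on the preset variation and not on replicates. Calls of the exact test among all 17887 genes tested are not given, so the members' calls have no background to be compared with. In the whole table, genes above 1, above 2, below -1 and below -2 numbered 1827, 387, 2951 and 1008 as reported. They numbered 1110, 185, 1101 and 283 of 12023 with at least 100 counts, and 5304, 1029, 5745 and 1773 of 30059 with no filter. A prior count of 5 gave 250 above 2 and 513 below -2, and protein-coding genes alone gave 1853 below -1. Genes higher in MAEL KO made up 38.2% of those past 1 and 27.7% of those past 2 as reported, 22.6% and 17% with total counts, 50.2% and 39.5% with at least 100 counts, and 48.0% and 36.7% with no filter. Of 174 list medians under alternatives, 148 stayed, 22 moved and 4 changed sign. DESeq2 size factors, FPKM ratios and the prior counts each left all 25 medians in place, while under total counts 3 stayed, 19 moved and 3 changed sign. With total counts base excision repair was at -0.165, nucleotide excision repair at -0.072 and translesion synthesis at -0.143, and with no filter the endothelial markers were at -0.28 against 1.12 over the 2 tested. No paired analysis was possible because each group has 1 library, and for the same reason no library could be left out. Depth limits the members with the fewest reads most, RAD54B with an interval from 0.83 to 1.69.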
